A study of Mus musculus with 6 samples.

Results

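Interleukin-6 family cytokines act through receptors that share one signalling chain, gp130, and the transcription factor STAT3 carries the signal to the nucleus. The genes described here are 8 members of that system, namely the ligands Il6 and Lif, the ligand-binding receptors Il6ra and Il11ra1, the signalling receptors Il6st (which encodes gp130), Lifr and Osmr, and Stat3. They were chosen by name, as the genes whose Ensembl identifiers carry these symbols in GENCODE release M21, and are 8 of the 55335 genes counted. Of the 8 members, 6 had enough reads to be tested, among 13642 genes tested in all. Il6 and Lifr fell under the low-count filter.

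RNA was taken from B16-BL6 mouse melanoma cells in culture, with no treatment named. The 3 scrambled control cultures (numbered 1, 2 and 3, genotype WT in the labels) and the 3 IFNγR1KO cultures (numbered 10, 11 and 12) came from cells transduced with a lentivirus that carried Cas9 and a guide. The guide was against GFP in control cells and against Ifngr1, the ligand-binding chain of the interferon-γ receptor, in IFNγR1KO cells. Knockout lines were grown from single cells and picked by PD-L1 levels, so the comparison is between lines that may differ in more than Ifngr1. The labels do not say which clone or which guide was sequenced. The 3 cultures of a group were plated in triplicate and lysed after a night, and the labels name no separate clones or passages, so p-values measure only the spread between these cultures, which may be technical.

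Gene counts summed to between 9402640 and 10579788 per control library and to between 6698956 and 7409479 per IFNγR1KO library. Ifngr1 had 154, 144 and 172 counts in control libraries and 80, 85 and 82 in IFNγR1KO libraries, a log2 fold change of -0.47 (adjusted p = 0.0729, edgeR), and the reads of an edited gene need not be lost. All 7 melanocyte markers were detected (summed level 31716 to 34659 CPM in control and 27898 to 32830 CPM in IFNγR1KO libraries), as in melanoma cells. Among the markers of other cell types, the leukocyte genes Ptprc, Cd3e, Adgre1 and Itgam and all 4 endothelial markers were at or near 0, with at most 3 counts in any library. The 7 leukocyte markers summed to between 8.03 and 10.2 CPM in control and to between 7.39 and 9.75 CPM in IFNγR1KO libraries, and 3 of 4 keratinocyte markers had at most 3 counts. Most of the leukocyte sum was Csf1r, with 42 to 96 counts per library (log2 fold change -0.08, adjusted p = 0.861, edgeR), and Cd68 had 4 to 11 counts. The 7 fibroblast markers summed to between 73.3 and 90.9 CPM in control libraries and to between 149 and 160 CPM in IFNγR1KO libraries. Of them, 2 rose (Col1a1 and Col1a2) and 2 did not pass, Pdgfra with a log2 fold change of -0.77 (adjusted p = 0.0866, edgeR) and Pdgfrb with one of 0.46 (adjusted p = 0.103), while Col3a1, Dcn and Lum had at most 3 counts everywhere. In scrambled control 3 and IFNγR1KO 12, long genes stood higher and short genes lower than in the other libraries of the group. For each member with reads, the value without both of these libraries is given beside the main value.

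IL-6 binds IL-6Rα, either on the membrane or in soluble form, and the pair then assembles with gp130. IL-11 does the same through IL-11Rα, while LIF pairs LIFR with gp130 and oncostatin M pairs OSMR with gp130. None of these chains has kinase activity of its own. JAK1, JAK2 and TYK2 sit on their tails and phosphorylate both the receptor and STAT3, which then enters the nucleus and switches on genes that include its own inhibitor, Socs3. In melanoma the pathway can be driven by IL-6 from the tumor cells or from other cells around them, and autocrine loops are a recurring question. The study asked which inputs feed JAK signalling in cells without IFNγR1, and IL-6 and its receptor were among the candidates it examined. By RT-PCR it reported more Il6 and Il6r (here Il6ra) RNA in IFNγR1KO cells. Antibodies that block IL-6 or its receptor left the raised JAK2 phosphorylation in place. By Western blot it also reported raised phosphorylation of JAK1, JAK2 and STAT3 in these cells.

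The promoters of 3 genes are shown. They carry the start sites of the member ligand with no counts (Il6), of the tested member with the largest log2 fold change (Il6ra) and of the pathway's feedback inhibitor (Socs3). Each is 300 bases long and reaches from upstream of the start site to just past it, as given by RefSeq on GRCm38.p6, and all 8 members had at least 1 such entry. Capitals mark a match to either of a pair of motifs searched on both strands. These were the STAT motif TTCNNNGAA and a C/EBP motif, TTGNGCAA, neither of which overlapped the other in these sequences.

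Il6, chr5:30012864-30013163, plus strand: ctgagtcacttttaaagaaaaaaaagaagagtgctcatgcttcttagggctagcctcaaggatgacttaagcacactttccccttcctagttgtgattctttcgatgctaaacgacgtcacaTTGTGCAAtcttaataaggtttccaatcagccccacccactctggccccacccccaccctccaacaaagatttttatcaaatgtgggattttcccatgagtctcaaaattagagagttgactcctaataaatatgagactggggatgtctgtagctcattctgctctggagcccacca
Il6ra, chr3:89913147-89913446, minus strand: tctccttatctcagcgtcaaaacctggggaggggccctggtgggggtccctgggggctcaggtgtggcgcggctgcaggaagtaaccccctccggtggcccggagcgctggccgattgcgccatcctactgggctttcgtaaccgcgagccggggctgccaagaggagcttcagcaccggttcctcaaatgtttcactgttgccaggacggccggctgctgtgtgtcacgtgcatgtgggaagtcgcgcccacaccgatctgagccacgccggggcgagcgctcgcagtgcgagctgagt
Socs3, chr11:117969317-117969616, minus strand: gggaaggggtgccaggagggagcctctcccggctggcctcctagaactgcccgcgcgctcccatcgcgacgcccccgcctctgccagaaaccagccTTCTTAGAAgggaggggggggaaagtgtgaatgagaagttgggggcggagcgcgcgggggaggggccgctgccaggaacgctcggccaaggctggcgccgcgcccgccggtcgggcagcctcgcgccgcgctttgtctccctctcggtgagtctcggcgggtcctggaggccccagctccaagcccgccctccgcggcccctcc

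The Il6 sequence held 1 C/EBP match, TTGTGCAA, from 128 to 121 bases before the start site. The C/EBP motif occurs in 2.94% of 32851 mouse promoter sequences of this length. The Socs3 sequence held 1 STAT match, TTCTTAGAA, from 154 to 146 bases before the RefSeq start site, which differs from the starts of the gene's GENCODE transcripts. The STAT motif occurs in 8.3% of all promoter sequences. Among the members, with 10 promoter sequences between them, 0 held the STAT motif and 1, that of Il6, held the C/EBP motif. A match of letters is not a measured binding site, and no binding was assayed in these libraries.

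The first question was whether the cells made the ligands. Il6 (ENSMUSG00000025746.11, chromosome 5, 30013114 to 30019981, plus strand, GRCm38), which encodes interleukin-6, had 0 counts in all 6 libraries. No read was thus assigned to Il6 in either group, and reads assigned to no gene were not searched for Il6. At this depth 0 counts allow a level of up to 0.101 CPM (the usual counts-per-million scale, over tested genes and with TMM factors) over the 3 control libraries together and of up to 0.139 CPM over the 3 IFNγR1KO libraries. Per library the limit was 0.290 to 0.326 CPM in control and 0.406 to 0.426 CPM in IFNγR1KO cells. These limits are the level of 3 counts and cover counting error only. A difference in Il6 between the groups below them was not detectable. The rise of Il6 that the study reported by RT-PCR was thus not seen in these counts, and the reason was not tested.

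Lif (ENSMUSG00000034394.14, chromosome 11, 4257557 to 4272514, plus strand) encodes leukemia inhibitory factor, which signals through LIFR and gp130. Its counts were 20, 19 and 20 in scrambled control libraries 1, 2 and 3, and 8, 12 and 5 in IFNγR1KO libraries 10, 11 and 12. As levels these were 2.17, 1.89 and 1.93 CPM against 1.14, 1.63 and 0.703 CPM. All 3 IFNγR1KO libraries lay below the lowest control library. The mean was 2.00 ± 0.151 CPM (SD, n = 3) in control and 1.16 ± 0.462 CPM (SD, n = 3) in IFNγR1KO cells. The log2 fold change, IFNγR1KO over control, was -0.78 ± 0.37 (standard error, SE, 95% interval -1.58 to 0.03), and it did not pass the test (adjusted p = 0.189, edgeR). Without both scrambled control 3 and IFNγR1KO 12 it was -0.55. Lif reached the filter through the control libraries, so the members that were tested are not a neutral sample of the members.

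**Figure D1:**
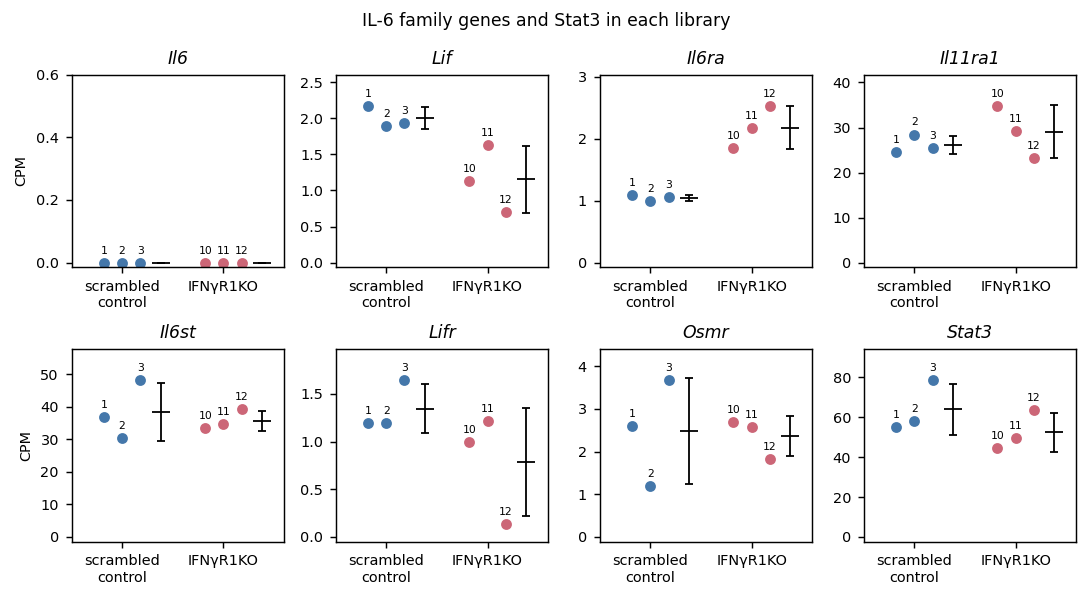
Level of each member (y axis, CPM, linear from 0) in each library, with the library number above its point; the horizontal bar is the mean and the whiskers are 1 SD (n = 3). The groups do not overlap for Lif (control higher) and Il6ra (IFNγR1KO higher), and Il6 is at 0 in all 6 libraries.

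The receptor for IL-6 was examined next. Il6ra (ENSMUSG00000027947.11, chromosome 3, 89864059 to 89913196, minus strand) encodes the chain that binds IL-6, and sets whether a cell with gp130 can respond to IL-6 directly. It had 10, 10 and 11 counts in control libraries and 13, 16 and 18 counts in IFNγR1KO libraries, whose totals were smaller. Its levels were 1.09, 0.995 and 1.06 CPM in control and 1.85, 2.17 and 2.53 CPM in IFNγR1KO libraries. Every IFNγR1KO library was above every control library. The mean was 1.05 ± 0.0472 CPM (SD, n = 3) in control and 2.18 ± 0.342 CPM (SD, n = 3) in IFNγR1KO cells, a ratio of 2.08. The log2 fold change was 1.05 ± 0.33 (SE, 95% interval 0.32 to 1.78), and 0.94 without both scrambled control 3 and IFNγR1KO 12.

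Il6ra had the smallest p-value among the members, and it missed the threshold once all genes tested were accounted for (unadjusted p = 0.00827, adjusted p = 0.0525, edgeR with Benjamini-Hochberg adjustment). Over the 11 alternative fits its adjusted p ran from 0.0530 to 0.211, and its direction was the same in each. Il6ra passed the low-count filter through the IFNγR1KO libraries alone, where its level was higher. With 10 to 18 counts per library, both means rest on few reads, 31 in control and 47 in IFNγR1KO cells. Gm42809 covers 2.80% of the Il6ra exons from the other strand, and the strand setting of the counting is not given in the sources used here.

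Il11ra1 (ENSMUSG00000073889.10, chromosome 4, 41699989 to 41769474, plus strand) encodes the receptor chain that binds IL-11. Its levels were 24.5, 28.5 and 25.4 CPM in control and 34.8, 29.3 and 23.2 CPM in IFNγR1KO libraries. The groups overlapped, and the highest and the lowest of the 6 libraries were both IFNγR1KO. The mean was 26.1 ± 2.06 CPM (SD, n = 3) against 29.1 ± 5.81 CPM (SD, n = 3), a log2 fold change of 0.15 (95% interval -0.21 to 0.52, adjusted p = 0.605, edgeR). It was 0.00485 without IFNγR1KO 10, 0.29 without IFNγR1KO 12 and 0.27 without both scrambled control 3 and IFNγR1KO 12. Of the 2531 windows of 75 bases in its longest transcript, 50.3% also occur in its near-identical copies Gm13305 and Il11ra2, so reads from those stretches may not have been assigned to it and the level of Il11ra1 is uncertain. Neither copy had more than 1 count in any library.

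The shared chain came next. Il6st (ENSMUSG00000021756.12, chromosome 13, 112464070 to 112510086, plus strand) encodes gp130, the chain through which IL-6, IL-11, LIF and oncostatin M all signal. Its levels were 36.8, 30.4 and 48.2 CPM in control and 33.4, 34.7 and 39.2 CPM in IFNγR1KO libraries. All 3 IFNγR1KO libraries lay inside the range of the control libraries. The mean was 38.5 ± 9.01 CPM (SD, n = 3) in control and 35.8 ± 3.06 CPM (SD, n = 3) in IFNγR1KO cells, with a log2 fold change of -0.11 ± 0.17 (SE, 95% interval -0.48 to 0.27, adjusted p = 0.743, edgeR). Without scrambled control 3 the log2 fold change of Il6st was 0.09, and without both scrambled control 3 and IFNγR1KO 12 it was 0.02, so its sign is not determined by these libraries.

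LIFR and OSMR are the chains that pair with gp130 to receive LIF and oncostatin M. Lifr (ENSMUSG00000054263.12, chromosome 15, 7090614 to 7197489, plus strand) had 11, 12 and 17 counts in control and 7, 9 and 1 counts in IFNγR1KO libraries, or 1.19, 1.19 and 1.64 CPM against 0.994, 1.22 and 0.141 CPM. The groups overlapped by IFNγR1KO 11, and IFNγR1KO 12 with its single count was the lowest. The mean was 1.34 ± 0.259 CPM (SD, n = 3) against 0.785 ± 0.569 CPM (SD, n = 3), and the two-sided exact permutation test of the means gave p = 0.3, where 0.1 is the smallest value that 3 against 3 libraries allow. The difference in means, IFNγR1KO minus control, was -0.559 CPM, and it was -0.237 CPM without IFNγR1KO 12 and -0.0872 CPM without both scrambled control 3 and IFNγR1KO 12. Osmr (ENSMUSG00000022146.12, chromosome 15, 6813577 to 6874969, minus strand) had 24, 12 and 38 counts in control and 19, 19 and 13 counts in IFNγR1KO libraries, or 2.61, 1.19 and 3.67 CPM against 2.70, 2.57 and 1.83 CPM. Its control libraries alone spanned the whole range of the 6. The mean of Osmr was 2.49 ± 1.24 CPM (SD, n = 3) in control and 2.37 ± 0.471 CPM (SD, n = 3) in IFNγR1KO cells. Its log2 fold change was -0.07 (95% interval -0.92 to 0.77, adjusted p = 0.928, edgeR), an interval wide enough to hold a change of either sign, and it was 0.33 without scrambled control 3 and 0.48 without both scrambled control 3 and IFNγR1KO 12.

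Stat3 (ENSMUSG00000004040.16, chromosome 11, 100885098 to 100939540, minus strand), the transcription factor at the end of the chain, had 54.9, 58.2 and 78.5 CPM in control and 44.5, 49.6 and 63.4 CPM in IFNγR1KO libraries. In each group 1 library stood above the other two, scrambled control 3 and IFNγR1KO 12. The mean was 63.9 ± 12.7 CPM (SD, n = 3) in control and 52.5 ± 9.79 CPM (SD, n = 3) in IFNγR1KO cells, a ratio of 0.822. Its log2 fold change was -0.28 ± 0.18 (SE, 95% interval -0.67 to 0.10, adjusted p = 0.321, edgeR). The Stat3 groups overlapped. The log2 fold change was -0.11 without scrambled control 3, -0.18 without IFNγR1KO 10 and -0.45 without IFNγR1KO 12 (adjusted p = 0.749, 0.677 and 0.0671, edgeR), and -0.27 without both scrambled control 3 and IFNγR1KO 12 (adjusted p = 0.151). These values are of Stat3 RNA, and STAT3 activity is set by phosphorylation, which RNA levels do not measure.

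Of the 6 members tested, 0 passed the test at an adjusted p under 0.05 with edgeR, beside 15.3% of all genes tested (7.73% higher and 7.62% lower in IFNγR1KO cells). With the additional limit of an absolute log2 fold change above 1, again 0 members passed, beside 5.2% of all genes. At an unadjusted p under 0.05 there was 1 member, Il6ra, beside 28.9% of genes. Among the 6, 2 had groups without overlap (Lif and Il6ra), beside 32.6% of genes. DESeq2's Wald test, which is the test the study used, also called 0 members, beside 13.2% of the 15361 genes to which it gave an adjusted p. The median log2 fold change of the 6 was -0.09, and that of all genes tested was -0.00147. In bulk samples a lower level in every cell and fewer cells with the RNA cannot be told apart.

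**Figure D2:**
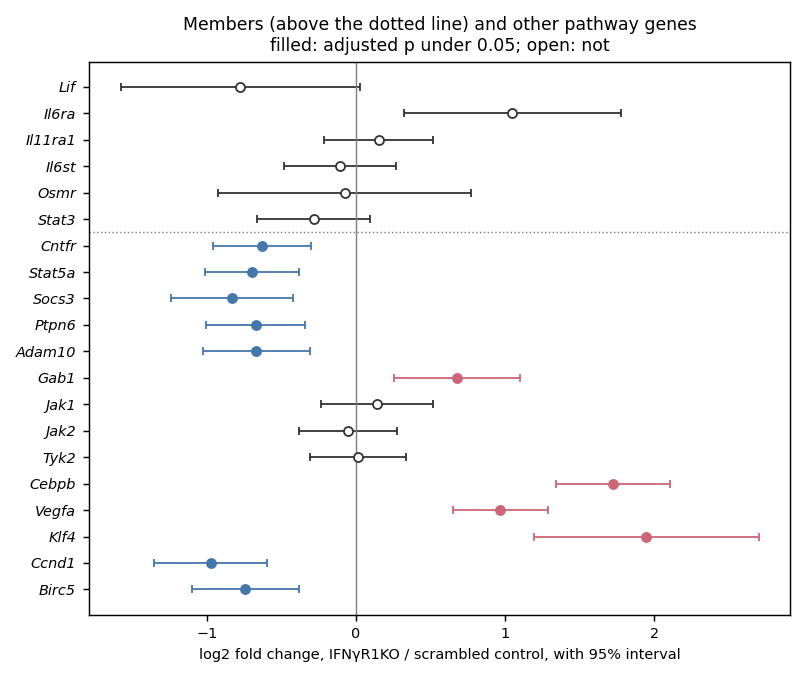
Log2 fold change, IFNγR1KO over scrambled control (x axis), with its 95% interval from the edgeR fit, for the 6 members tested and for the other pathway genes named in the text; filled points passed the test (adjusted p under 0.05). All 6 members are open points, and of these only the interval of Il6ra (0.32 to 1.78) lies off 0.

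Levels of different genes were compared per length, as CPM per kilobase of exon. Both groups fell into the same pair of tiers. In control cells Stat3 (6.70 ± 1.34, SD, n = 3), Il11ra1 (5.85 ± 0.460) and Il6st (3.47 ± 0.812) formed the upper tier, and Lif (0.459), Osmr (0.206), Lifr (0.125) and Il6ra (0.121) the lower. In IFNγR1KO cells the order was Il11ra1 (6.51 ± 1.30), Stat3 (5.51 ± 1.03), Il6st (3.22 ± 0.276), Lif (0.266), Il6ra (0.252), Osmr (0.195) and Lifr (0.0728). Several neighbours in this order overlapped. These were Stat3 with Il11ra1, Osmr with Lifr and Lifr with Il6ra in control cells, and Il11ra1 with Stat3, Lif with Il6ra and Il6ra with Osmr in IFNγR1KO cells. The step from Il6st down to Lif was 7.55-fold in control and 12.1-fold in IFNγR1KO cells, with no overlap in either.

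Against all genes tested, over the 6 libraries, the upper tier lay between the middle and the lower end and the lower tier near the bottom. Of 13636 tested genes with a known length, 49.5% had a lower level per kilobase than Il11ra1, 49.1% a lower level than Stat3 and 32.7% a lower level than Il6st. The share below was 2.32% for Lif, 0.631% for Osmr, 0.521% for Il6ra and 0.125% for Lifr. The order depends on the length used. With the length of the longest transcript in place of all exonic bases, the mean over the 6 libraries was 10.6 CPM per kilobase for Il11ra1, 9.63 for Stat3, 4.28 for Il6st and 0.442 for Osmr.

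**Figure D3:**
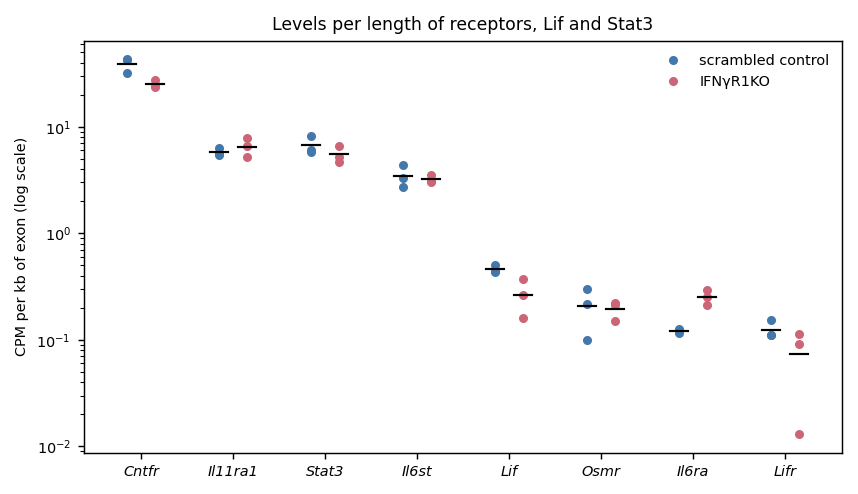
Level per length (y axis, CPM per kilobase of exon, log scale) of the members with reads and of Cntfr, in each library of both groups; black bars are group means. Cntfr, Il11ra1, Stat3 and Il6st lie at least 7.55-fold above the members Lif, Osmr, Il6ra and Lifr in the control means.

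Because gp130 is shared, the ligand-binding chains were also set against it within each library. Il6ra per kilobase was 3.79%, 4.20% and 2.83% of Il6st in control and 7.10%, 8.03% and 8.29% of Il6st in IFNγR1KO libraries. The highest share was in IFNγR1KO 12, and every IFNγR1KO share was above every control share. The mean ratio was 3.61 ± 0.701% (SD, n = 3) in control and 7.81 ± 0.621% (SD, n = 3) in IFNγR1KO cells, without overlap. The two-sided exact permutation p was 0.1, the smallest this design allows. The groups overlapped for Il6st, so this ratio restates the difference in Il6ra and is no separate result. Il6ra had 10 to 18 counts per library and passed the low-count filter through the IFNγR1KO libraries alone. Il11ra1 was between 131% and 232% of Il6st in control and between 147% and 259% in IFNγR1KO libraries, and these ranges overlapped (exact permutation p = 0.6). Of the ligand-binding receptors among the members, the RNA of Il11ra1 thus exceeded that of Il6st per length and the RNA of Il6ra did not.

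The rest of the family was read from a list of 14 genes, of which 3 were tested, 1 fell, 0 rose and 5 had 0 counts in all 6 libraries (Osm, Il31, Il27ra, Il31ra and Il11ra2). Of all genes tested, 7.62% fell and 7.73% rose. The median log2 fold change of the 3 was -0.15. The gene that fell was Cntfr, the receptor chain for ciliary neurotrophic factor, which pairs with LIFR and gp130. It had 88.4, 119 and 117 CPM in control and 66.6, 66.1 and 77.2 CPM in IFNγR1KO libraries. All 3 IFNγR1KO libraries lay below all 3 control libraries. The mean was 108 ± 17.2 CPM (SD, n = 3) against 70.0 ± 6.25 CPM (SD, n = 3), a log2 fold change of -0.63 ± 0.15 (SE, adjusted p = 0.0150, edgeR). The call was lost in 3 of the 6 fits that leave out 1 library, those without scrambled control 2, IFNγR1KO 10 or IFNγR1KO 11 (adjusted p = 0.0768, 0.0681 and 0.0938).

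Per length, Cntfr was the most abundant chain of the family among the genes examined, at between 958% and 1563% of Il6st in control and between 761% and 796% of Il6st in IFNγR1KO libraries. Clcf1, a ligand of the Cntfr complex, had a mean of 1.50 CPM in control and 1.35 CPM in IFNγR1KO cells. No ligand of the family, Lif included, exceeded 2.17 CPM in any library.

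Ctf1, which encodes the ligand cardiotrophin-1, is named although it fell outside the rule for named genes, and was chosen after its values were seen. It had 13, 20 and 12 counts in control libraries and 1, 1 and 2 counts in IFNγR1KO libraries. Every control library was above every IFNγR1KO library. Summed over libraries, these are 45 against 4 counts, a ratio of IFNγR1KO to control of 0.122 (95% counting interval 0.0319 to 0.335). Ctf1 just missed the low-count filter. A fit without that filter gave a log2 fold change of -2.96 (adjusted p = 0.000472, edgeR), which at such counts depends on the prior count of the fit. Adjusted p-values of that fit are not comparable with those of the main fit. That of Cebpb was 1.38e-20 there against 7.04e-05, and that of Il6ra 0.108 against 0.0525 (edgeR). Of its exonic bases, 4.77% lie under Ctf2 on the other strand.

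The relay from receptor to nucleus was read from a list of 24 kinases, adaptors, phosphatases, inhibitors, receptor sheddases and other STAT genes. Of these 19 were tested, 1 rose and 4 fell, beside 7.73% and 7.62% of all genes tested, and the median log2 fold change was -0.19. The kinases bound to gp130 did not pass the test. Jak1 had 53.4, 60.0 and 76.8 CPM in control and 60.9, 63.7 and 84.9 CPM in IFNγR1KO libraries (log2 fold change 0.14, adjusted p = 0.654, edgeR). The corresponding values were -0.05 for Jak2 (adjusted p = 0.865) and 0.02 for Tyk2 (adjusted p = 0.965). The sign of all 3 kinases turned when single libraries were left out, and that of Tyk2 also turned without the low-count filter (-0.02).

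Socs3, the inhibitor that STAT3 induces and that blocks the JAKs bound to gp130, fell. It had 11.7, 13.9 and 14.5 CPM in control and 7.53, 6.64 and 8.43 CPM in IFNγR1KO libraries. The highest IFNγR1KO library was below the lowest control library. The mean was 13.4 ± 1.46 CPM (SD, n = 3) against 7.53 ± 0.898 CPM (SD, n = 3), a log2 fold change of -0.83 ± 0.19 (SE, adjusted p = 0.0110, edgeR). The call was lost in 1 of the 6 fits without 1 library (adjusted p = 0.0728 without IFNγR1KO 11). Socs3 is the gene with the STAT match shown above.

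The other relay genes that fell were Stat5a, Ptpn6 and Adam10. Stat5a, a related STAT that lies next to Stat3 on chromosome 11, had 30.2, 31.4 and 34.2 CPM in control and 18.3, 19.4 and 21.4 CPM in IFNγR1KO libraries, a log2 fold change of -0.70 (adjusted p = 0.00702, edgeR). The exons of Stat3 and Stat5a meet tail to tail, with 0.756% of the exonic bases of Stat3 and 1.01% of those of Stat5a in the overlap. Ptpn6 encodes the phosphatase SHP-1, and its log2 fold change was -0.67 (adjusted p = 0.0116, edgeR). Adam10, a membrane protease that sheds IL-6Rα among many other proteins, had a log2 fold change of -0.67 (adjusted p = 0.0178, edgeR). Adam17, the other receptor sheddase of the list and outside the rule for named genes, did not pass (log2 fold change -0.05, adjusted p = 0.861, edgeR). Gab1, a docking protein that couples gp130 to SHP2 and the MAP kinase route, rose from 9.46 ± 1.87 CPM (SD, n = 3) to 15.2 ± 1.73 CPM (SD, n = 3), a log2 fold change of 0.68 (adjusted p = 0.0336, edgeR). That of Stat5a passed in all 6 fits without 1 library, those of Ptpn6 and Adam10 in 4, and that of Gab1 in 1.

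Genes known as STAT3 targets were read from a list of 30, drawn from textbook knowledge and not from these cells. Of these 25 were tested, 3 rose, 6 fell and 16 did not pass, with a median log2 fold change of -0.11, where 7.73% of all genes tested rose and 7.62% fell. The 3 that rose were Cebpb, Vegfa and Klf4, and the 6 that fell were Ccnd1, Birc5, Socs3, Mcl1, Maff and Gadd45g. Genes of the list thus moved in both directions, and each of them also answers to other transcription factors. With the limit of an absolute log2 fold change above 1, there were 2 higher (Cebpb and Klf4) and 1 lower (Gadd45g). Of the 13642 genes tested, 443 were higher and 267 lower at this limit, 5.2% in either direction.

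Cebpb encodes C/EBPβ, a transcription factor of the acute-phase response that binds the C/EBP motif. It had 18.7, 25.9 and 26.8 CPM in control and 65.8, 78.2 and 91.8 CPM in IFNγR1KO libraries. The groups were far apart, with means of 23.8 ± 4.44 CPM (SD, n = 3) and 78.6 ± 13.0 CPM (SD, n = 3). The log2 fold change was 1.72 ± 0.18 (SE, adjusted p = 7.04e-05, edgeR). Of the exonic bases of Cebpb, 20.7% lie under Tmem189 on the other strand. Il6, whose promoter holds the C/EBP match shown above, had 0 counts in the same libraries, and a link between Cebpb and Il6 was not tested.

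Vegfa, the main angiogenic growth factor, had means of 65.0 ± 9.33 CPM (SD, n = 3) in control and 127 ± 10.2 CPM (SD, n = 3) in IFNγR1KO cells, a log2 fold change of 0.97 (adjusted p = 0.00109, edgeR). Klf4, a zinc-finger transcription factor, had 0.868, 1.89 and 1.45 CPM against 4.55, 4.34 and 7.59 CPM, a log2 fold change of 1.95 (adjusted p = 0.00283, edgeR). Neither gene had overlapping groups. Klf4 had 8, 19 and 15 counts in control and 32, 32 and 54 counts in IFNγR1KO libraries, so its control level rests on few reads. Scrambled control 1 lay under the filter's cutoff of 1.19 CPM. Klf4 thus passed the filter only with the IFNγR1KO libraries, where its level was higher. Ccnd1, the cyclin that drives entry into the cell cycle, fell from 328 ± 54.6 CPM (SD, n = 3) to 167 ± 32.2 CPM (SD, n = 3), a log2 fold change of -0.97 (adjusted p = 0.00288, edgeR), and 23.4% of its exonic bases lie under LTO1 on the other strand. Birc5, which encodes the mitotic protein survivin, had a log2 fold change of -0.74 (adjusted p = 0.0103, edgeR). Cebpb, Vegfa, Klf4 and Ccnd1 passed in all 6 fits without 1 library and Birc5 in 5.

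The remaining 3 that fell lie outside the rule for named genes and are given to complete the count. Mcl1, a BCL-2 family protein that keeps cells alive, had a log2 fold change of -0.47 (adjusted p = 0.0276, edgeR). Gadd45g, a stress-response gene, had one of -1.11 (adjusted p = 0.0279) and the transcription factor gene Maff one of -0.76 (adjusted p = 0.0332). Without scrambled control 2, only 2 target genes fell, Ccnd1 (adjusted p = 0.0230, edgeR) and Socs3 (adjusted p = 0.0479), so none of these 3 calls held there. A further 3 genes of the list, also chosen after their values were seen, did not pass. Myc, a growth regulator, had a log2 fold change of -0.38 (adjusted p = 0.0723). The acute-phase regulator Cebpd had one of 0.21 (adjusted p = 0.583), and Bcl6, a repressor, had one of 0.80 (adjusted p = 0.0532).

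**Figure D4:**
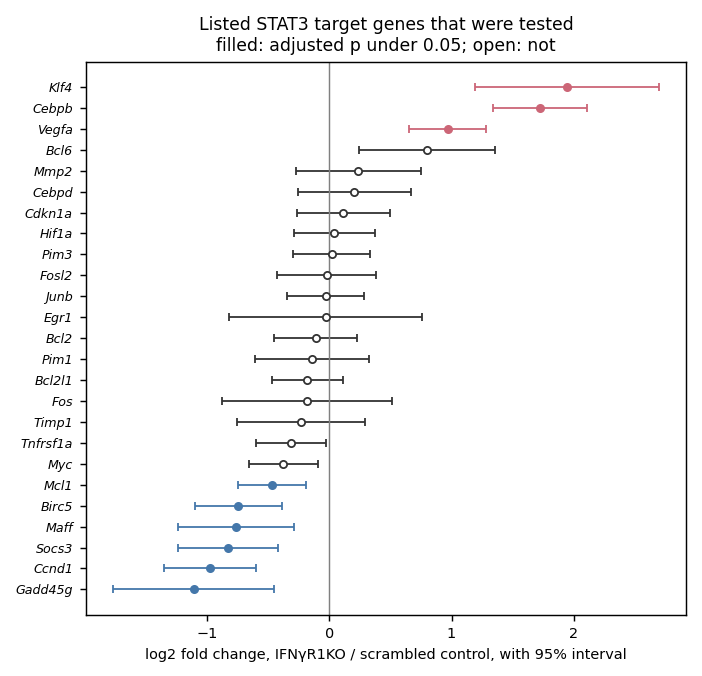
Log2 fold change, IFNγR1KO over scrambled control (x axis), with its 95% interval from the edgeR fit, for the 25 listed STAT3 target genes that were tested; filled points passed the test (adjusted p under 0.05). The 3 filled points on the right are Klf4, Cebpb and Vegfa, and the 6 on the left run from Mcl1 (-0.47) to Gadd45g (-1.11).

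The spread within groups was then followed for Il6st and Stat3, the members with the most reads. Relative to the mean of its own group on the log2 scale, Stat3 stood at -0.20, -0.12 and 0.31 in control libraries 1, 2 and 3 and at -0.22, -0.07 and 0.29 in IFNγR1KO libraries 10, 11 and 12. Il6st stood at -0.04, -0.31 and 0.35 and at -0.10, -0.04 and 0.14. Both genes were highest in scrambled control 3 and in IFNγR1KO 12. The median deviation of the longest tested genes (at least 7141 exonic bases) minus that of the shortest (at most 1754) was -0.07, -0.27 and 0.34 in control and -0.17, -0.14 and 0.30 in IFNγR1KO libraries. It was thus also highest in the same pair of libraries, and its part in the values of Il6st and Stat3 was not tested.

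**Figure D5:**
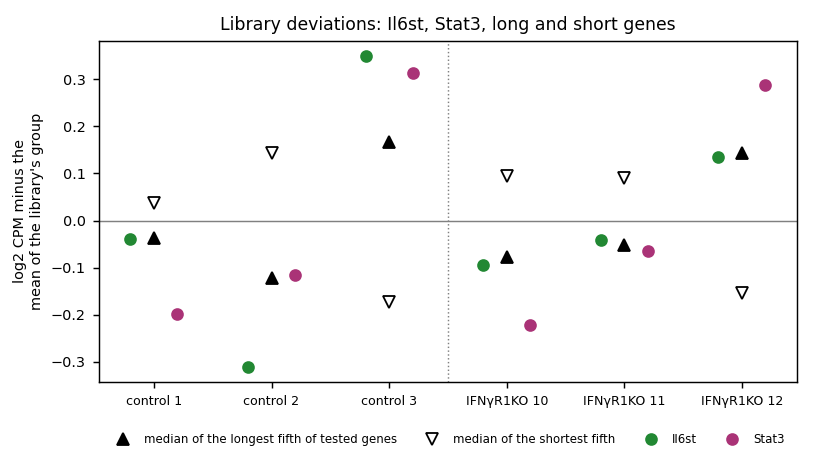
Deviation from the library's own group mean (y axis, log2 CPM) of Il6st, Stat3 and the medians of the longest and the shortest tested genes, by library. Il6st, Stat3 and the long genes are above 0 in scrambled control 3 and IFNγR1KO 12 and below 0 in the other 4 libraries, while the short genes do the opposite.

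The genes with the pattern most like that of Il6st and of Stat3 were sought over all 6 libraries, as the smallest root mean square difference in log2 CPM after each gene was centred on its mean. For Il6st these were Cpne3 (0.0251), Plec (0.0360) and Kif2a (0.0420), where the median over all genes was 0.325. For Stat3 they were D17Wsu92e (0.0209), Gpd2 (0.0299) and Ipo5 (0.0318), where the median was 0.354. Like Il6st and Stat3, these 6 genes were all highest in scrambled control 3 and in IFNγR1KO 12 within their groups. That follows from how they were picked and is no separate result. The likeness describes these 6 libraries only, and the part of the shift of long genes in it was not tested.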

How the data were processed

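Per the labels and the study's methods, poly(A)-selected RNA of 6 cultures was sequenced, with paired-end reads. STAR 2.7.5a placed the reads on GRCm38, and the values deposited by the authors are unnormalized read counts per gene from HTSeq 0.11.2. The annotation release and strand setting are not given in the sources used here. Lines that name no gene, 53.0% to 54.0% of each total, were left out. Most of these were reads in no counted feature, 46.9% to 47.7% of each total, beside 46.0% to 47.0% on genes. The reason for this share was not tested.

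Members and lists were chosen with earlier results of these data known. Symbols, positions and lengths came from GENCODE M21, which held 55154 of the 55335 identifiers, and promoters from RefSeq. The counts were tested in R 4.3.3 with edgeR 4.0.16, using filterByExpr (minimum count 10, minimum total 15), TMM scaling and its quasi-likelihood test. P-values were adjusted by the Benjamini-Hochberg method over all genes tested, and a call is an adjusted p under 0.05. Standard errors were derived from the fold change and its F statistic. The fit was tested on simulated data. Named were the members, up to 6 called genes of each pathway list by smallest adjusted p, Jak1, Jak2, Tyk2 and Socs3, and the 3 genes most like Il6st and Stat3, since no member was called.

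Alternatives were DESeq2 1.42.0, DESeq2's size factors in edgeR, no filter, thinning to the smallest total, the longest transcript as length, Il11ra1 summed with Il11ra2, and each library left out. Leaving out both libraries with high levels of long genes was chosen after seeing the data. Libraries of a group differed by more than counting error (chi-square per degree of freedom 2.71 to 24.8). Of the lists, 1 family gene and 1 marker are not reported here by name.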

Additional observations from a re-analysis of the deposited data

How the results depend on the processing

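The count of members called was 0 under each of the 12 alternatives. Of these, summing Il11ra1 with Il11ra2 could not change the fit, because Il11ra2 had 0 counts in all 6 libraries. The log2 fold changes of Lif, Il6ra, Il11ra1 and Stat3 kept their sign in all of theirs. Single libraries moved Il11ra1 between 0.00485 and 0.29 and Stat3 between -0.45 and -0.11. Some values near 0 changed sign. Il6st ran from -0.25 to 0.0890 with single libraries left out and was 0.0176 without both libraries with high levels of long genes. Osmr was 0.0591 after thinning, -0.41 to 0.33 with single libraries left out and 0.48 without both libraries. Jak1 ran from -0.0296 to 0.30 and Jak2 from -0.14 to 0.0360 with single libraries left out, and Jak2 was 0.00672 without both. Tyk2 was -0.0153 without the low-count filter and ran from -0.0521 to 0.13 with single libraries left out. With single libraries left out, pathway genes called ran from 7 to 14, family genes that fell from 0 to 2, relay genes that rose from 0 to 1 and that fell from 1 to 4, and target genes that fell from 2 to 6. Family genes that fell were 2 with DESeq2, 2 without the filter and 2 without both libraries, and relay genes that rose were 0 after thinning and 2 without both. Only length choice moved the levels of Il11ra1 (10.6 CPM per kilobase), Il6st (4.28), Osmr (0.442) and Stat3 (9.63), all with the longest transcript. Apart from the construction of each alternative, the cause was not tested. Depth limits Il6, Lif, Il6ra, Lifr and Osmr, whose libraries held 38 counts at most. No paired analysis was possible because the control cultures are numbered 1, 2 and 3 and the IFNγR1KO cultures 10, 11 and 12, and share no number.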
